A study of Malus hupehensis with 3 samples.

Results

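The miRNA families mdm-miR164, mdm-miR394 and mdm-miR396 of Malus hupehensis, an apple rootstock, were described here in leaves of the adult and juvenile phases. All names that begin with these family names were taken, which gave 15 of the 207 known miRNA names and 7 of the 85 distinct mature sequences. Of these, mdm-miR164 has 6 names and 2 sequences, mdm-miR394 has 2 names and 1 sequence, and mdm-miR396 has 7 names and 4 sequences. Any gene model paired with them in the juvenile degradome was added, which gave 2 of 129 gene models paired with known miRNAs.

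Adult phase (A) leaves were pooled from the tops of 18 trees that were 6 years old, and juvenile phase (J) leaves were pooled from the base of the trees. Each pool gave 1 small RNA library, and RNA of J leaves gave 1 degradome library. There is no replicate, so no test of the phase was possible, and the phase and the place of the leaf on the tree cannot be told apart. Depth was 16.2 M clean reads in A and 13.5 M in J (M, 1000000 reads). The files hold miRNA counts and no marker genes, so the leaf tissue was not checked against markers.

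In Arabidopsis, miR164 guides the cleavage of mRNAs for NAC transcription factors, some of which set organ boundaries and shape the leaf margin. There miR394 targets LCR, an F-box gene of leaf form and of the shoot meristem. miR396 targets GRF genes, whose growth-regulating factors keep leaf cells dividing. Plant miRNAs pair closely with their targets, and the mRNA is cut between the bases opposite bases 10 and 11 of the miRNA. A degradome library records the 5' ends that such cuts leave.

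The 7 mature sequences are shown 5' to 3' because the members differ by very few bases, with the seed (bases 2 to 8) in capitals and positions counted from 1 at the 5' end.
mdm-miR164a: uGGAGAAGcagggcacaugcc
mdm-miR164b to mdm-miR164f: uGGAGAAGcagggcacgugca
mdm-miR394a and mdm-miR394b: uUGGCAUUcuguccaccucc
mdm-miR396a: uUCCACAGcuuucuugaacag
mdm-miR396b: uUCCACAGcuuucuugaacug
mdm-miR396c to mdm-miR396e: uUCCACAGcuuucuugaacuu
mdm-miR396f and mdm-miR396g: uUCCACGGcuuucuugaacug

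Both mdm-miR164 sequences share a seed and differ by A17G and C21A, read from mdm-miR164a to the other. In mdm-miR396, the sequences a, b and c to e share a seed and differ at their last 2 bases only. mdm-miR396b differs from mdm-miR396a by A20U and from mdm-miR396c to mdm-miR396e by G21U. mdm-miR396f and mdm-miR396g have a seed of their own through A7G, which is the single difference between mdm-miR396b and them. No known miRNA of another family and no predicted miRNA had any of these 4 seeds. Among the 172 predicted miRNAs, 0 lay within 3 mismatches of a member at any shift of up to 4 bases. The nearest, novel_mir_149, had 5 mismatches with mdm-miR396f and mdm-miR396g over the bases that overlap at the best shift. Overhanging bases were not counted, so end to end these sequences differ at more positions.

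The levels of the members spanned more than 3 orders of magnitude, with the common mdm-miR164 sequence at the top in both libraries. For mdm-miR164b to mdm-miR164f, 4069 reads were counted in A, or 251 reads per 1000000 clean reads (RPM; exact 95% Poisson interval 243 to 259), and 3500 in J, or 258 RPM (250 to 267). The intervals overlap. The 5 deposited entries of that sequence ranged from 4055 to 4069 reads in A and from 3490 to 3500 in J, so the choice among them hardly moves the value. For mdm-miR164a, 0 reads were counted in A and 1 read in J. The count of 0 was taken to allow up to 3 reads, or 0.185 RPM. That is a 1-sided limit, unlike the intervals of the other levels. No fold was computed for mdm-miR164a, and nearly every mdm-miR164 read in these leaves was assigned to the other sequence. These and all later intervals describe counting error alone, because each phase has 1 library. Reads copied by PCR and carrying no molecular identifier are not independent molecules, so the intervals may be too narrow even for that.

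The mdm-miR396 sequences followed below. mdm-miR396a had 925 reads in A (57.0 RPM, 53.4 to 60.8) and 1648 in J (122 RPM, 116 to 128). mdm-miR396b had 220 reads in A (13.6 RPM, 11.8 to 15.5) and 747 in J (55.1 RPM, 51.3 to 59.2). The intervals of A and J lay apart for both sequences. mdm-miR396f and mdm-miR396g had 281 reads in A (17.3 RPM, 15.4 to 19.5) and 296 in J (21.8 RPM, 19.4 to 24.5). mdm-miR396c to mdm-miR396e had 62 reads in A (3.82 RPM, 2.93 to 4.90) and 94 in J (6.94 RPM, 5.61 to 8.49). The intervals of the libraries overlapped for mdm-miR396f and mdm-miR396g and lay apart for mdm-miR396c to mdm-miR396e.

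The sequence of mdm-miR394a and mdm-miR394b was close to the limit of detection. It had 2 reads in A (0.123 RPM, 0.0149 to 0.445) and 13 in J (0.960 RPM, 0.511 to 1.64). By reads, mdm-miR164 ranked 12 of 43 known families in A and 13 in J, mdm-miR396 ranked 17 and 15, and mdm-miR394 ranked 37 and 36.

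The order of the sequences differed between the libraries at a single place. In A, mdm-miR396f and mdm-miR396g had 1.28 times the reads of mdm-miR396b (95% interval 1.07 to 1.53). In J, mdm-miR396b had 2.52 times the reads of mdm-miR396f and mdm-miR396g (2.20 to 2.90). Other neighbours in the order differed by 2.12 times or more, with intervals without 1, except mdm-miR394 and mdm-miR164a in A, whose 2 and 0 reads cannot be ranked. Levels of different sequences also carry the cloning bias of each sequence, which was not tested.

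**Figure D1:**
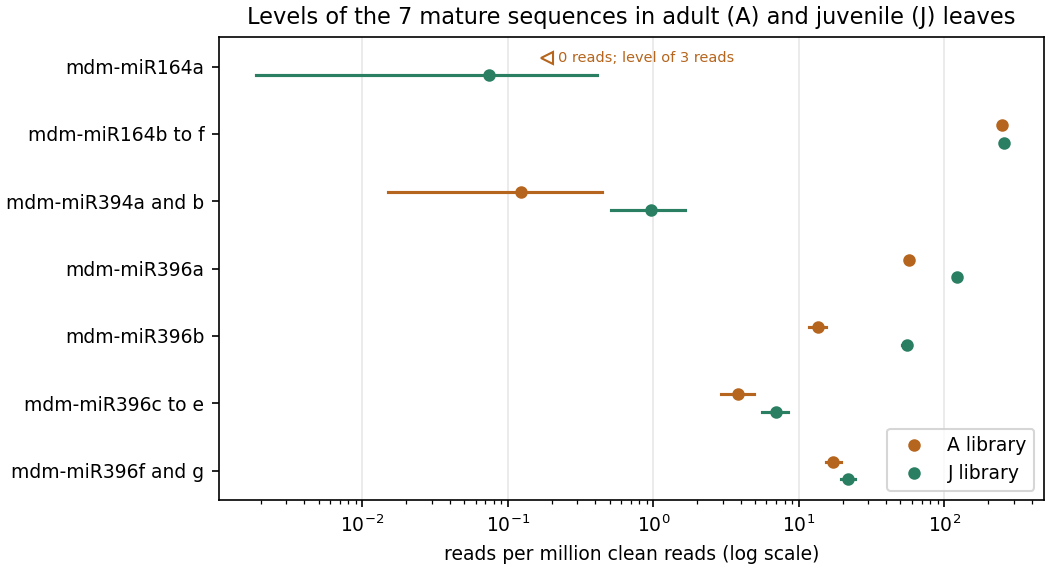
Level in RPM (log scale) of each of the 7 mature sequences in the A and J libraries, with exact 95% Poisson intervals as bars; the open triangle marks the level of 3 reads where 0 were counted. mdm-miR164b to mdm-miR164f sit at 251 and 258 RPM, whereas mdm-miR396b moves from 13.6 RPM in A to 55.1 in J.

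The comparison of J with A asks which miRNAs differ between the juvenile and adult phases. Per clean read, mdm-miR396 and mdm-miR394 were higher in J and mdm-miR164 was nearly level. The ratio of J over A was 2.24 for mdm-miR396 (exact 95% Clopper-Pearson interval 2.10 to 2.39), from 1488 reads in A against 2785 in J. It was 7.78 for mdm-miR394 (1.76 to 71.0), which rests on 2 and 13 reads. For mdm-miR164 it was 1.03 (0.984 to 1.08), with 4069 and 3501 reads. A call needed 10 reads or more in either library, a 2-fold difference in either direction, and an interval that leaves out 1. By this rule mdm-miR396 and mdm-miR394 were called higher in J and mdm-miR164 was not called, whereas 39.5% of the 38 known families with enough reads passed as higher in J and 10.5% as higher in A. The count among the members is thus read against a background in which calls of higher in J are common. In pooled leaves, fewer cells that hold a miRNA and less of it per cell cannot be told apart.

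Within mdm-miR396 the 4 sequences did not share a ratio. It was 4.07 for mdm-miR396b (3.49 to 4.75) and 2.13 for mdm-miR396a (1.97 to 2.31), and both were called higher in J. For mdm-miR396c to mdm-miR396e it was 1.82 (1.30 to 2.54) and for mdm-miR396f and mdm-miR396g 1.26 (1.07 to 1.49), and neither was called, though mdm-miR396c to mdm-miR396e would pass a limit of 1.5-fold. Over all 59 known sequences with enough reads, 37.3% passed as higher in J and 8.47% as higher in A. The family sum without mdm-miR396b gave 1268 reads for A, 2038 for J and thus 1.92 (1.79 to 2.07), which no longer passed the limit of 2. Leaving out any other sequence kept the call, with ratios from 2.26 to 2.47.

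**Figure D2:**
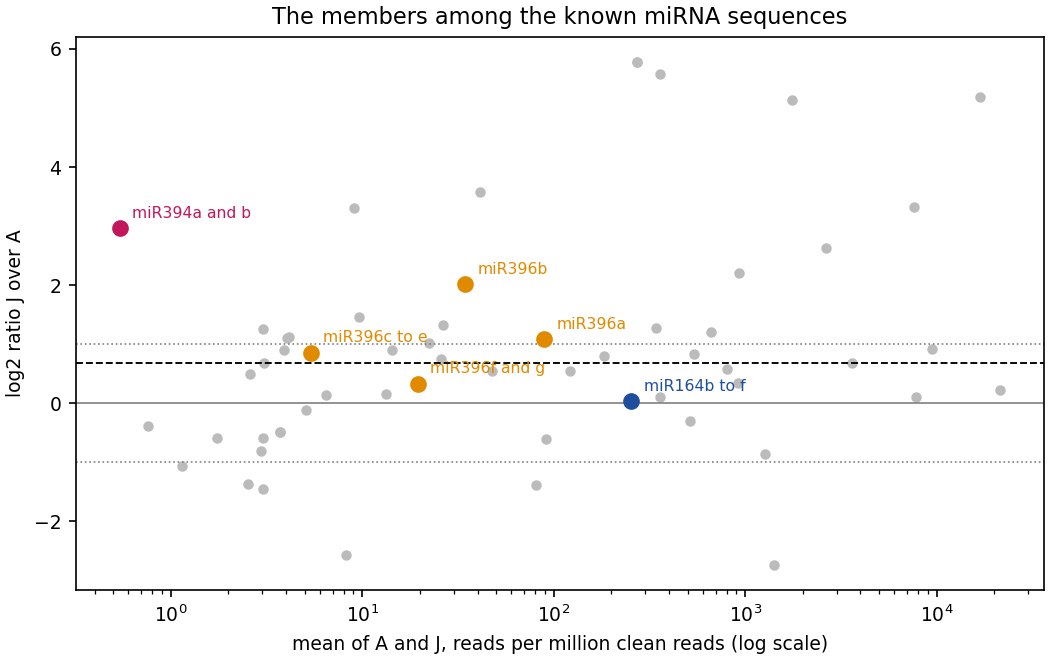
The log2 ratio of J over A (clean-read scale) against the mean level in RPM (log scale) for 58 known sequences that reached 10 reads in either library and had reads in both; grey points are other families, dotted lines the call limits, the dashed line the median. mdm-miR396a, mdm-miR396b and mdm-miR394 lie above the upper limit. mdm-miR164b to mdm-miR164f, and mdm-miR396f and mdm-miR396g, lie below the median of 0.69.

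The calls depended on how the libraries were scaled. Among known sequences, 56 reached 10 reads in each library, and their median log2 ratio was 0.69, or 1.61-fold. Relative to that median, mdm-miR396 was 1.39-fold higher in J (1.30 to 1.48) and mdm-miR164 lower at 0.639 (0.610 to 0.669). As a share of the known miRNA reads, mdm-miR396 was 0.190% in A (0.180 to 0.200) and 0.181% in J (0.174 to 0.188), and mdm-miR164 was 0.519% in A (0.503 to 0.535) and 0.228% in J (0.220 to 0.235). On that scale mdm-miR164 was the one member family called, as lower in J. Such calls were common there, since 22 of the 59 known sequences with enough reads were called lower in J, against 5 with clean reads. Over the 5 other scalings, the ratio of mdm-miR164 ran from 0.438 to 0.860, that of mdm-miR396 from 0.954 to 1.87, and that of mdm-miR394 from 3.31 to 6.5. mdm-miR396b alone ran from 1.73 to 3.40 and was called in 4 of the 5. Under those 4, from 13 to 17 of the 59 known sequences with enough reads were called higher in J. mdm-miR396a ran from 0.908 to 1.78 and was called in 0 of the 5.

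**Figure D3:**
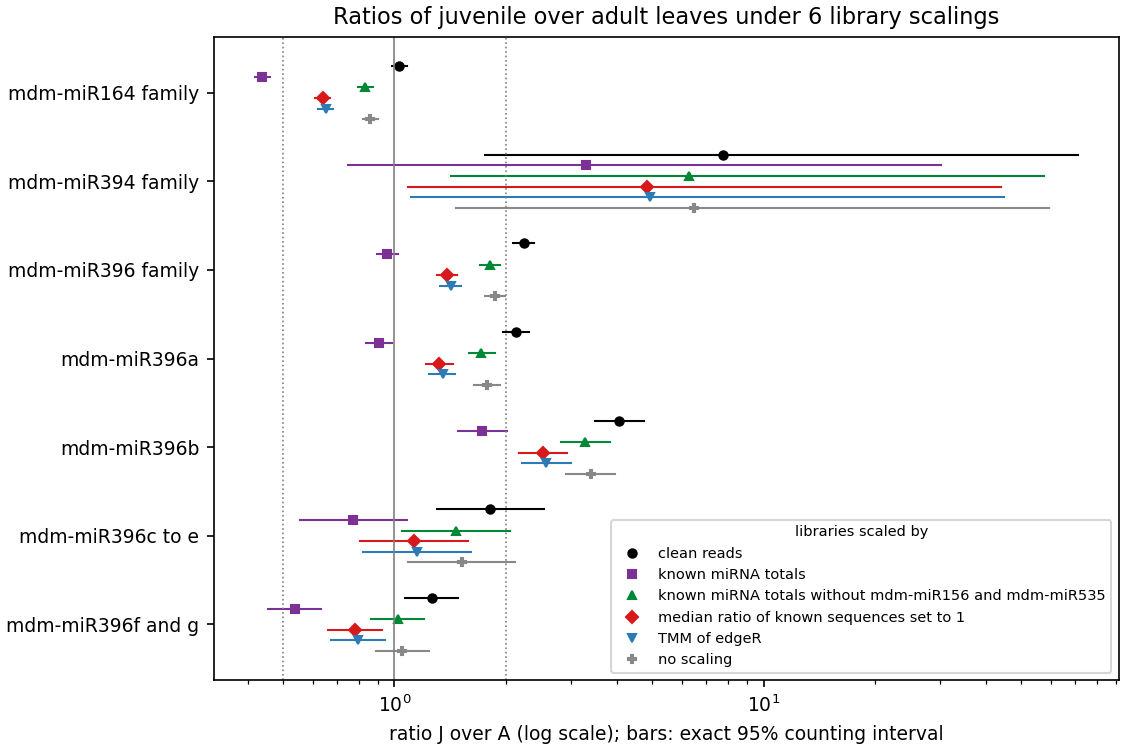
Ratio of J over A (log scale) of the 3 families and the 4 mdm-miR396 sequences under 6 ways of scaling the libraries, with exact 95% counting intervals as bars; the solid line marks 1 and the dotted lines 0.5 and 2. mdm-miR396b stays above 1 throughout, at 1.73 to 4.07, whereas mdm-miR164 moves from 1.03 with clean reads to 0.438 with known miRNA totals.

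Comparisons between members do not depend on the scaling. From A to J, reads of mdm-miR396 changed 2.18 times as much as those of mdm-miR164 (95% interval of this ratio of ratios 2.01 to 2.35). For mdm-miR394 over mdm-miR164 the value was 7.55 (1.71 to 69.0), and for mdm-miR394 over mdm-miR396 it was 3.47 (0.784 to 31.7), which includes 1 because of the few mdm-miR394 reads. Inside mdm-miR396, the ratio of mdm-miR396b was 1.91 times that of mdm-miR396a (1.6 to 2.27), 2.24 times that of mdm-miR396c to mdm-miR396e (1.54 to 3.23) and 3.22 times that of mdm-miR396f and mdm-miR396g (2.57 to 4.05). The ratio of mdm-miR396a was 1.69 times that of mdm-miR396f and mdm-miR396g (1.40 to 2.04). For mdm-miR396a over mdm-miR396c to mdm-miR396e the value was 1.18 (0.830 to 1.65), and for mdm-miR396c to mdm-miR396e over mdm-miR396f and mdm-miR396g it was 1.44 (0.990 to 2.10). Both intervals include 1, so no difference was detectable there at this depth. These intervals compare 2 libraries and do not test the phase.

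The make-up of mdm-miR396 therefore differed between the libraries. mdm-miR396b made up 14.8% of the family reads in A (exact 95% interval 13.0 to 16.7) and 26.8% in J (25.2 to 28.5). mdm-miR396f and mdm-miR396g went the other way, from 18.9% in A (16.9 to 21.0) to 10.6% in J (9.51 to 11.8). mdm-miR396a held the largest share in both, at 62.2% in A (59.6 to 64.6) and 59.2% in J (57.3 to 61.0), with intervals that overlap. mdm-miR396c to mdm-miR396e held 4.17% in A (3.21 to 5.31) and 3.38% in J (2.74 to 4.11). When each name was summed, so that reads of a shared sequence entered several times, mdm-miR396a had 48.9% in A and 50.4% in J, and the shares of the sequences with several names were over 1.5 times higher. By seed, the sequences with UCCACAG had 1207 reads in A against 2489 in J, and those with UCCACGG had 281 and 296, a ratio of ratios of 1.96 (1.63 to 2.35).

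Reads were matched by the authors to apple miRNAs with fewer than 2 mismatches. mdm-miR396b lies 1 base from each of the other mdm-miR396 sequences, so reads may have been counted for several of them. mdm-miR396a and mdm-miR396b, which differ by 1 base, had 925 and 220 reads in A, so their reads were not all shared. The part of shared reads in the ratios was not tested.

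**Figure D4:**
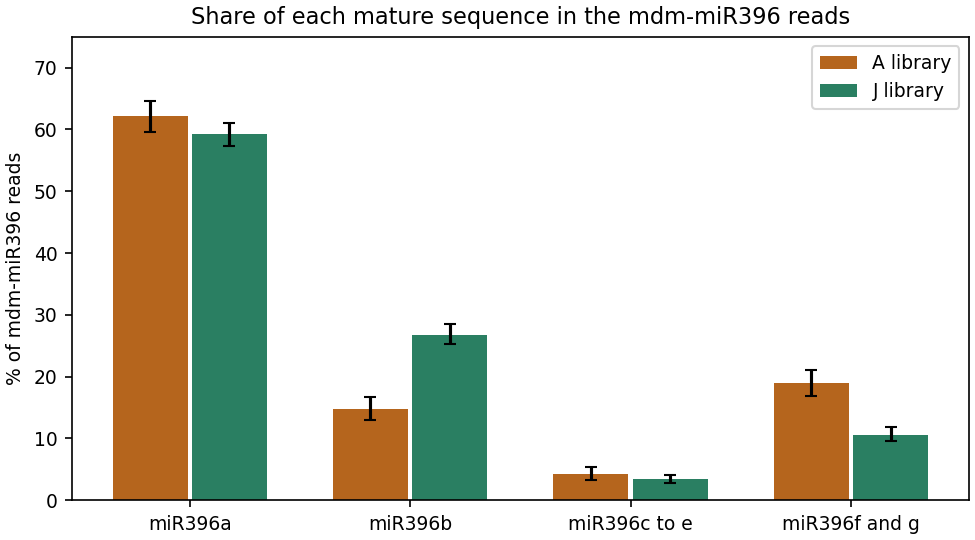
Percent of the mdm-miR396 reads held by each of its 4 mature sequences in the A and J libraries, with exact 95% Clopper-Pearson intervals as error bars. mdm-miR396b goes from 14.8% in A to 26.8% in J, and mdm-miR396f and mdm-miR396g go from 18.9% to 10.6%.

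Other families were used for scale only. By the difference in log2 ratio over these 2 libraries, the families nearest to mdm-miR164 were mdm-miR482 (ratio 1.06), mdm-miR7123 (1.10) and mdm-miR166 (1.17). Nearest to mdm-miR396 were mdm-miR7120 (2.30), mdm-miR393 (2.17) and mdm-miR7124 (2.39). Nearest to mdm-miR394 were mdm-miR160 (9.89), mdm-miR535 (12.0) and mdm-miR169 (12.0), though the interval of mdm-miR394 is wide enough to hold many more. Of 10 other families with known roles in leaf form (mdm-miR156, mdm-miR159, mdm-miR160, mdm-miR166, mdm-miR167, mdm-miR171, mdm-miR172, mdm-miR319, mdm-miR390 and mdm-miR393), 4 passed as higher in J and 0 as higher in A. Over all 38 known families with enough reads, 39.5% passed as higher in J and 10.5% as higher in A. The median ratio of the leaf form families was 1.86, beside 1.74 over those 38, with a count of 0 set to 3 reads.

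In the degradome of J leaves, mdm-miR164 was the single member family with a record. Its 12 records pair each of its 6 names with the gene models MDP0000298182 and MDP0000528658, both annotated by the study as NAC domain containing protein 1, a NAC transcription factor. In MDP0000298182 the site was base 628 of a coding length of 951 bases, and in MDP0000528658 it was base 538 of 861. Both sites lay opposite base 10 of the miRNA, as did 81.1% of the 159 combinations of gene model, known family and site. The count at the site, taken to be degradome reads that start there, which the file does not state, was 845 in both gene models. No chromosome is given in these records, and the version of the apple genome is not given in the sources used here.

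The target site is shown to set its unpaired bases beside the miRNA, with bases that pair with mdm-miR164b to mdm-miR164f in capitals, 5' to 3', from base 617 to 637 of MDP0000298182 and from base 527 to 547 of MDP0000528658.
NAC site: aGCAaGTGCCCTGCTTCTCCA

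The unpaired bases lie opposite positions 17 and 21 of the miRNA. These are also the only positions at which the mdm-miR164 sequences differ (A17G and C21A above). For mdm-miR164a full pairing would need A17U and C21U, and for mdm-miR164b to mdm-miR164f it would need G17U and A21U. Both sequences thus have 2 mismatches, no G:U pair and the same score of 2, and bases 1 to 16 are paired throughout. The score, in which lower is closer, equalled the mismatches plus 0.5 for each G:U pair in all 2204 records and ran from 0 to 4. The records do not tell the mdm-miR164 sequences apart as guides, but in the J small RNA library they had 1 and 3500 reads.

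The gene models cannot be told apart in these records. All 31 bases around the site are the same in both, and both sites lie 323 bases before the end of the coding sequence. They differ by 90 bases in the distance from the start. Therefore the count of 845 may be a single set of reads listed for both gene models. No other known or predicted miRNA was paired with either of them, and 0 records outside mdm-miR164 had a count of 845.

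The count at the NAC site was high for this library. Counts ran from 25 to 1661 with a median of 76 over the 159 combinations, and only 11 combinations, from 4 families, exceeded it. By its largest site count mdm-miR164 ranked 5 of 25 families with a record. By its reads in J it ranked 13 of all 43 known families, a different set, so these ranks cannot be compared directly. Its site was among the 42.1% of combinations with a score of 2 or lower. The depth of the degradome library is unknown here, so no rate or interval was computed.

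mdm-miR394 and mdm-miR396 had 0 records each among those analysed here, as did 16 other known families. mdm-miR394 had 13 reads in J, whereas mdm-miR396 had 2785, and its 206 RPM lie near the 258 RPM of mdm-miR164. Abundant families such as mdm-miR7120, at 929 RPM, had no record either. The smallest listed count is 25, and whether a limit was set on it is not known here. Sites with fewer reads may be missing from the records, so 0 records do not show that no target was cut. The gene models placed beside mdm-miR394 and mdm-miR396 in the target list of the study were looked up, and none of them had a record for any miRNA.

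The 436 different 31-base windows of all records were also compared with the 7 member sequences in every placement, under the same score. For mdm-miR164, 1 window scored 4 or lower, which was the NAC site at 2. For mdm-miR394 the lowest score was 6.5, and for the mdm-miR396 sequences it was 7 to 8.5, so 0 windows came within the limit of 4. This scan is not independent of the records. They already list pairings with scores up to 4, and neither mdm-miR394 nor mdm-miR396 has a record, so this outcome was largely fixed in advance. The window found for mdm-miR164 is likewise the one its own records hold. Sites outside these windows were not examined.

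**Figure D5:**
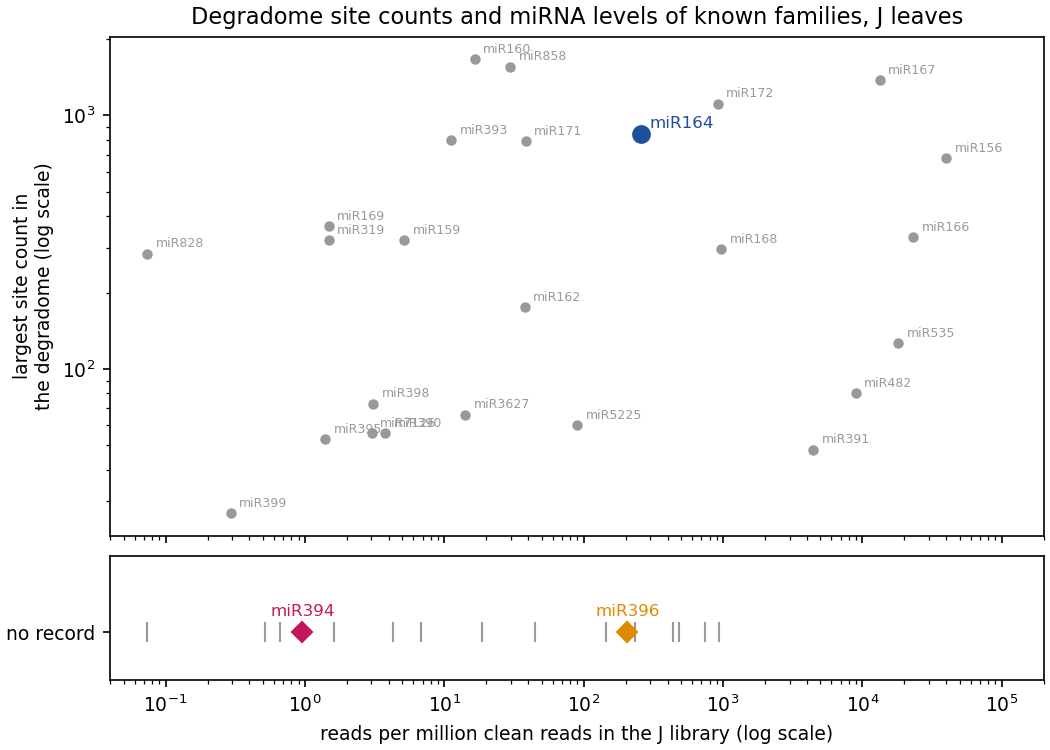
Largest degradome site count of each known family (log scale) against its level in the J library in RPM (log scale), with families that have no record in the lower strip, where 2 families with 0 reads in J are not drawn. mdm-miR164 stands at a site count of 845 and 258 RPM, and mdm-miR396 is without a record at 206 RPM.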

How the data were processed

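Small RNAs of 18 to 30 nt were sequenced by the authors, who removed adapters and low-quality reads and matched reads to apple miRNAs of miRBase 18.0. The deposited files give a raw read count for each mature sequence, without normalization. Names and sequences were joined through the study's list of known miRNAs. Where several names share a sequence, their highest count was used and entered once, and a family is the sum over its sequences. Counts were divided by the clean reads of each library, which the study states. For the degradome, the authors paired cleavage sites with apple gene models in PairFinder. The site count and the score are their values, and the site was taken as base 15 of the 31 bases shown, since the 3 gene models with a site at base 15 begin with ATG.

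Intervals were computed in SciPy 1.17.1 (Python 3.11.15, numpy 2.4.6): Clopper-Pearson for the split of reads and for shares, Poisson for levels, and the exact conditional interval for ratios of ratios. Of these, only the intervals of the J over A ratios, with the calls, were checked on simulated data. The simulated counts were independent, which the intervals also assume, so the check does not cover PCR copies or variation between libraries. Figures were drawn in matplotlib 3.10.9. Alternatives changed the scaling (known miRNA totals, these without mdm-miR156 and mdm-miR535, the median ratio, TMM in edgeR 4.0.16 under R 4.3.3, or none), the way entries are summed, the read minimum (50 or none), the fold (1.5 or 4), and the score, count and position of sites. All members and the nearest 3 families are named. The members, lists and rules were chosen with earlier results of these data known.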

Additional observations from a re-analysis of the deposited data

How the results depend on the processing

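Under known miRNA totals, known totals less the families mdm-miR156 and mdm-miR535, the median ratio, TMM and no scaling, the ratio of mdm-miR164 was 0.438, 0.833, 0.639, 0.651 and 0.860, below 1 each time, and that of mdm-miR164b to mdm-miR164f was the same. In that order mdm-miR396 had 0.954, 1.81, 1.39, 1.42 and 1.87, none of them called. Each of these 5 scalings multiplies every ratio by a factor below that of clean reads. Under known totals, mdm-miR394 had 3.31 and was not called, mdm-miR396a had 0.908 (1.32 to 1.78 under the other 4 scalings, not called in any of the 5), mdm-miR396c to mdm-miR396e 0.773, and mdm-miR396f and mdm-miR396g 0.537. The last had 0.782 under the median ratio and 0.797 under TMM. A minimum of 50 reads removed the call of mdm-miR394 (7.78), and a fold of 4 those of mdm-miR396 (2.24) and mdm-miR396a (2.13). A fold of 1.5 added a call of mdm-miR396c to mdm-miR396e (1.82). The sum without mdm-miR396b, chosen after seeing the data, was 1.92.

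Known sequences called higher in J, 22 in all, numbered 10 under known totals and 13 under the median ratio, TMM and a fold of 4. Those called lower in J, 5 in all, numbered 22 under known totals, 8 under known totals less the families mdm-miR156 and mdm-miR535, no scaling and a fold of 1.5, 13 under the median ratio and TMM, and 2 under a fold of 4. Summing over names, which counts shared reads several times, gave 1.44 for mdm-miR396c to mdm-miR396e over mdm-miR396f and mdm-miR396g (1.15 to 1.81) and 3.62 for mdm-miR394 over mdm-miR396 (1.25 to 14.3), both then without 1 in the interval. It also gave shares in A and J of 48.9% and 50.4% for mdm-miR396a, 11.6% and 22.9% for mdm-miR396b, 9.83% and 8.63% for mdm-miR396c to mdm-miR396e, and 29.7% and 18.1% for mdm-miR396f and mdm-miR396g. The other ratios of ratios and the gene model counts kept their side. No paired analysis was possible because each phase has 1 library. Depth limits mdm-miR394 and mdm-miR164a most.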
